A study of Homo sapiens with 12 samples.

Results

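The genes described here code for the conjugating enzymes of drug metabolism. They were chosen by gene symbol alone, as the glutathione S-transferases (GST, and MGST for the microsomal ones), the UDP-glycosyltransferases (UGT) and the sulfotransferases (SULT). Of 23786 probe sets on the array, 51 carried a matching symbol, and 4 of these were left out as pseudogenes (GSTA7P, GSTM2P1, SULT1C5P and GSTT2, which RefSeq classes as one). The other 47 were 18 GST, 19 UGT and 10 SULT genes, each with 1 probe set. All cells came from RUES2, an established human embryonic stem cell line, and were measured on 12 Affymetrix arrays along its directed differentiation to airway epithelium. Undifferentiated stem cells were taken at day 0 (n = 2), lung progenitors with high CD47 by sorting at day 15 (day 15 CD47hi, n = 2), day 22 cells, which are early airway cells (n = 2), and SCGB3A2+ (n = 3) and SCGB3A2- (n = 3) cells by a sort at day 36. SCGB3A2 is a secretoglobin of airway epithelium. By the labels' protocols the day 22 and day 36 cells descended from lung progenitors sorted on CD47. Those progenitors were grown in a medium of low Wnt activity. No genotype or test drug is among the group labels, but culture conditions changed along the differentiation. The labels name no sort for the day 0 and day 22 cells. Sorting, culture conditions and time cannot be told apart in those comparisons.

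Conjugation makes a reactive or fat-soluble molecule more soluble by joining it to a donor. Glutathione S-transferases attach glutathione to electrophiles, UDP-glycosyltransferases attach a sugar, mostly glucuronic acid, from its UDP form, and sulfotransferases attach sulfate from the activated donor PAPS. Transporters of the ABCC family then carry the conjugates out of the cell. Liver and gut hold many of these enzymes, and airway epithelium, which meets inhaled chemicals, holds glutathione S-transferases and several others.

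Values are RMA log2 values, on which 1 unit is a 2-fold step, and a difference is the log2 difference between 2 group means, given ± the standard error (SE) from limma. A difference passed the test when its adjusted p was under 0.05. Levels are compared only within a gene, because probe sets differ in how strongly they bind. The labels do not state whether replicates are separate cultures, and p-values therefore reflect only how much these arrays differ, which can be technical. Arrays of the same group correlated at 0.978 for day 0 and at 0.985 to 0.993 for the other groups, and the array number limits the precision. As checks of the labels, POU5F1, a stem cell factor, read 4.02 and 4.75 at day 0 and under 2 on every other array. NKX2-1, the lung transcription factor, averaged 7.63 in SCGB3A2+ cells and 4.13 in SCGB3A2- cells. CD47 averaged 8.44 at day 15 and 6.54 at day 0. SCGB3A2 read 8.89 to 9.39 in SCGB3A2+ cells and 2.06 to 2.70 in SCGB3A2- cells, but it also read 7.24 and 7.05 in the day 0 stem cells.

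Among conjugating enzyme genes past an F-test with a range of at least 1 log2 unit, most were lowest in stem cells. Most of them were highest at day 22 or in the SCGB3A2- cells of day 36. In limma's moderated F-test, 28 of the 47 genes (59.6%) differed among the 5 groups, beside 51.3% of all probe sets. These were 14 of 18 GST, 9 of 19 UGT and 5 of 10 SULT genes. For 27 of the 28 the highest and lowest group means lay at least 1 log2 unit apart (57.4% of the genes, beside 33% of all probe sets). Day 22 held the highest mean for 13 of these 27 genes (48.1%, beside 12.1% of all probe sets counted the same way). SCGB3A2- cells held it for 6 (22.2%, beside 12%) and SCGB3A2+ cells for 3 (11.1%, beside 20.6%). It lay at day 0 for 3 (11.1%, beside 36.2%) and at day 15 for 2 (7.41%, beside 19.2%). Day 0 held the lowest mean for 18 of the 27 (66.7%, beside 36.2% of all). The spread between the 2 day 22 arrays bears on this, since 8 genes differed by 1 or more between them, and array C was the higher one for 17 of the 27.

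**Figure D1:**
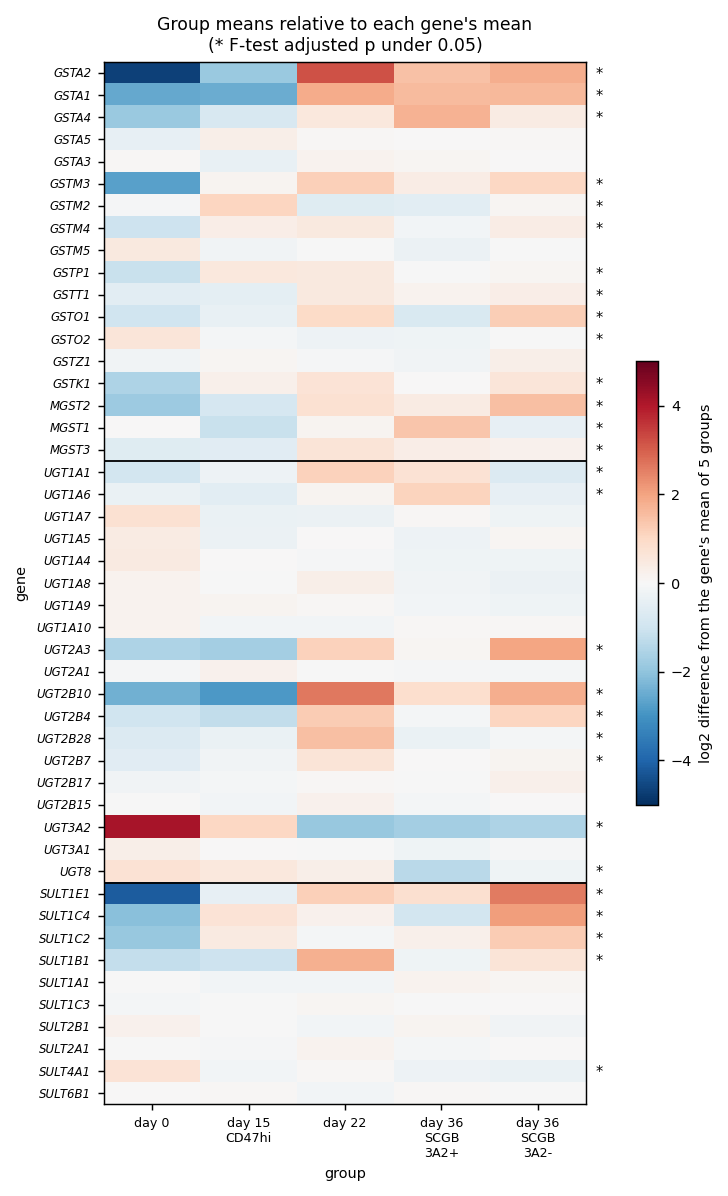
Group means of the 47 conjugating enzyme genes, each as the log2 difference from that gene's mean over the 5 groups (colour), with GST, UGT and SULT genes separated by lines and an asterisk at the 28 genes past the F-test. Most genes with an asterisk are blue at day 0 and red at day 22 or in SCGB3A2- cells, while UGT3A2 is red at day 0.

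In the alpha class, GSTA2 and GSTA1 had the widest ranges among the 18 GST genes. GSTA1 and GSTA2, which are abundant in liver and also reduce organic hydroperoxides, rose most between the progenitor stage and day 22. GSTA2 read 1.72 and 1.90 at day 0, 3.75 and 5.51 at day 15, 9.03 and 10.27 at day 22, 7.86, 7.39 and 8.58 in SCGB3A2+ cells and 8.41, 8.08 and 8.38 in SCGB3A2- cells. Each later stage up to day 22 lay wholly above the one before, and the day 36 sorts overlapped each other below day 22. GSTA1 read 2.96 and 3.36 at day 0, 2.87 and 3.59 at day 15, 6.72 and 8.39 at day 22, 7.35, 6.85 and 7.69 in SCGB3A2+ cells and 7.76, 7.02 and 7.26 in SCGB3A2- cells. Its first 2 groups overlapped, all later arrays stood more than 3 units above them, and the day 36 sorts averaged 7.30 in SCGB3A2+ cells and 7.35 in SCGB3A2- cells. GSTA4 prefers hydroxynonenal, an aldehyde released when lipids are oxidised, and read 5.22 and 5.14 at day 0, 6.25 and 6.23 at day 15, 7.72 and 7.42 at day 22, 8.95, 8.65 and 8.77 in SCGB3A2+ cells and 7.45, 7.41 and 7.53 in SCGB3A2- cells. Every SCGB3A2+ value of GSTA4 lay above every other array.

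GSTA1 and GSTA2 are near-identical copies, and probes can bind transcripts of both, so their separate values are uncertain. Probe sequences were not used here. The RefSeq promoters (GRCh38.p14) show how alike the copies are, and the 250 bases before each start are given 5′ to 3′, with capitals in the first pair at the bases that differ between them:

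GSTA1 (chr6:52803817-52804066, minus strand): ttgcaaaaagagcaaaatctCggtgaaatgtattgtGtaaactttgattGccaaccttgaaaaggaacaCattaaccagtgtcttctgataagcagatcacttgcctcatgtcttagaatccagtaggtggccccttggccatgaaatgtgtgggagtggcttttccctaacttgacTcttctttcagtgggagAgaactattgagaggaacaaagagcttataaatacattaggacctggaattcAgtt

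GSTA2 (chr6:52763476-52763725, minus strand): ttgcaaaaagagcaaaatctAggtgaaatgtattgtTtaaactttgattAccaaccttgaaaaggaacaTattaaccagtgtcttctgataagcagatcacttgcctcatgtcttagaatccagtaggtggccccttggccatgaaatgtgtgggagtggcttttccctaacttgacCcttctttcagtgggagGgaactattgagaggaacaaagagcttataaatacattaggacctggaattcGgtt

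The pair differed at 7 of 250 positions (97.2% identical, position by position), against 18.4% to 38.4% (median 25.2%) for the 54 other pairs within a family. Both hold TATAAA, the TATA box letters, 30 to 25 bases before the start, and TTGCAAAA, which fits a C/EBP motif, at 250 to 243. The promoter of GSTA4, which moved apart from the pair at day 36, has neither, and its capitals mark TGACCTGGC, a match to the core letters TGACNNNGC of the antioxidant response element:

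GSTA4 (chr6:52995285-52995534, minus strand): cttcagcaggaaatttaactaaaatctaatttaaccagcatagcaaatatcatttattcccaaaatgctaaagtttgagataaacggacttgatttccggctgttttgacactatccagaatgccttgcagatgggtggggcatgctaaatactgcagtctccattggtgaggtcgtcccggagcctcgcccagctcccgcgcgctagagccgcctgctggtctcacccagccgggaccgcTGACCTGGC

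Among the mu class, GSTM3 had the widest range. It read 3.61 and 3.90 at day 0, 6.62 and 6.53 at day 15, 7.58 and 7.69 at day 22, 6.74, 6.60 and 7.15 in SCGB3A2+ cells and 7.61, 7.26 and 7.54 in SCGB3A2- cells. All SCGB3A2+ values lay below all SCGB3A2- values, and day 0 stood more than 2 units under the rest. GSTM2, a form found in muscle, read 3.41 and 3.78 at day 0, 4.67 and 4.78 at day 15, 3.62 and 2.45 at day 22, 3.32, 2.41 and 3.63 in SCGB3A2+ cells and 3.51, 3.87 and 3.87 in SCGB3A2- cells. It peaked at day 15, and its other groups overlapped. GSTM4 read 5.70 and 5.07 at day 0, 6.79 and 6.70 at day 15, 7.08 and 6.72 at day 22, 6.20, 6.23 and 6.44 in SCGB3A2+ cells and 6.86, 6.89 and 6.68 in SCGB3A2- cells. Its SCGB3A2+ values lay wholly below its SCGB3A2- values. Mu class genes are close copies too, so these values can also reflect shared probes.

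GSTP1, the pi class enzyme of many epithelia including airway, was bright in every group. It read 9.54 and 8.50 at day 0, 10.54 and 10.74 at day 15, 10.49 and 10.70 at day 22, 9.96, 10.17 and 10.16 in SCGB3A2+ cells and 10.24, 10.19 and 10.25 in SCGB3A2- cells. The sorts lay close together and under the day 15 and day 22 arrays, and the stem cell arrays were lowest and differed by about 1 from each other. GSTK1, found in mitochondria and peroxisomes, read 5.82 and 5.61 at day 0, 7.63 and 7.42 at day 15, 7.74 and 8.17 at day 22, 7.17, 7.37 and 7.36 in SCGB3A2+ cells and 7.84, 7.84 and 7.91 in SCGB3A2- cells. Its SCGB3A2+ values lay wholly below the SCGB3A2- values. GSTT1, a theta class enzyme for small halogenated compounds, read 4.82 and 5.03 at day 0, 4.69 and 5.19 at day 15, 6.0 and 5.89 at day 22, 5.68, 5.64 and 5.50 in SCGB3A2+ cells and 5.91, 5.51 and 5.90 in SCGB3A2- cells. The stem cells and progenitors overlapped under all later arrays, and the later groups overlapped or nearly met.

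GSTO1, an omega class enzyme that reduces dehydroascorbate, separated the sorts more widely than any other GST gene. It read 2.89 and 3.13 at day 0, 3.57 and 3.75 at day 15, 4.50 and 5.43 at day 22, 3.07, 3.45 and 3.21 in SCGB3A2+ cells and 5.01, 5.15 and 5.55 in SCGB3A2- cells. SCGB3A2+ cells overlapped day 0 and SCGB3A2- cells overlapped day 22, with a gap between the sorts. Its relative GSTO2 passed the F-test with a range under 1, from 3.31 at day 22 to 4.18 at day 0.

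The microsomal genes went separate ways. MGST1, a detoxifying enzyme of the endoplasmic reticulum and outer mitochondrial membrane, read 7.11 and 6.62 at day 0, 5.73 and 5.70 at day 15, 7.04 and 6.94 at day 22, 8.37, 8.14 and 8.16 in SCGB3A2+ cells and 6.48, 6.33 and 6.46 in SCGB3A2- cells. It was lowest in the progenitors and highest in every SCGB3A2+ array. MGST2, which takes part in leukotriene synthesis, read 3.81 and 4.51 at day 0, 5.12 and 5.21 at day 15, 6.63 and 6.92 at day 22, 6.40, 6.01 and 6.79 in SCGB3A2+ cells and 7.50, 7.44 and 7.51 in SCGB3A2- cells. Here the SCGB3A2- cells were the higher sort, without overlap. MGST3 read 6.07 and 6.41 at day 0, 6.38 and 6.20 at day 15, 7.26 and 7.73 at day 22, 7.22, 7.18 and 7.18 in SCGB3A2+ cells and 7.06, 7.09 and 7.02 in SCGB3A2- cells. Its arrays fell into a low early set and a high late set.

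**Figure D2:**
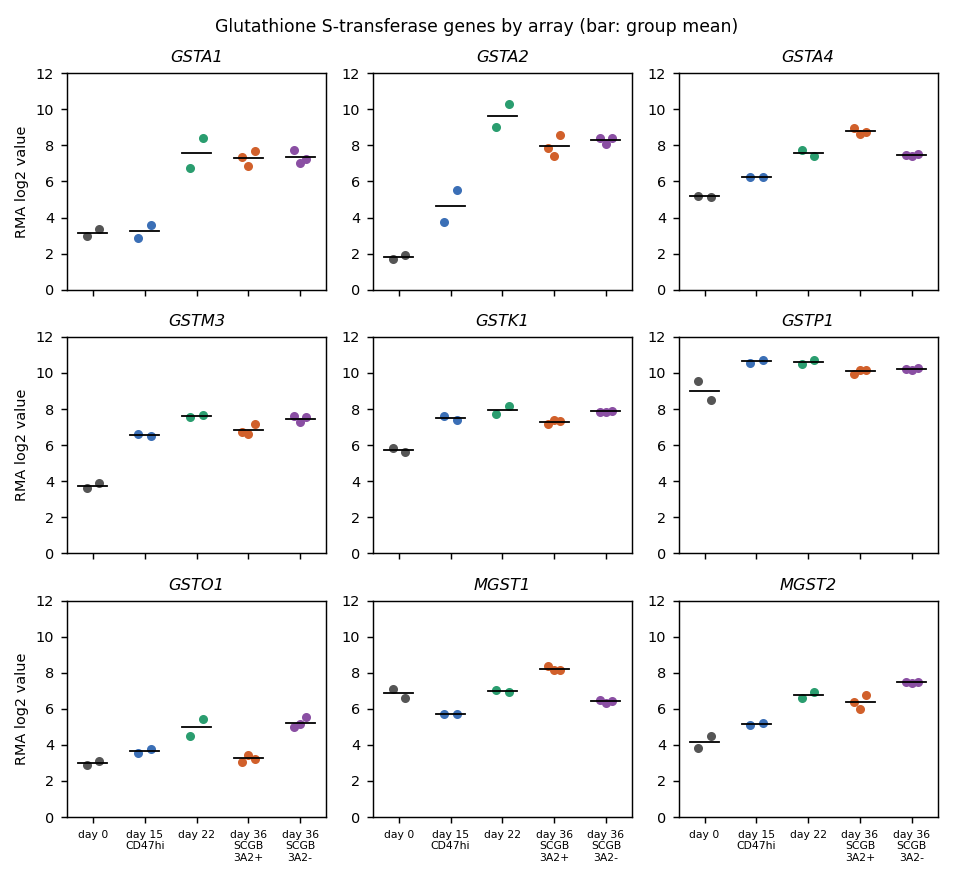
RMA log2 values of 9 glutathione S-transferase genes on each of the 12 arrays (points) by group, with the group mean as a bar. GSTA4 and MGST1 are highest in SCGB3A2+ cells, GSTO1 and MGST2 are higher in SCGB3A2- than in SCGB3A2+ cells, and the sorts overlap for GSTA1 and GSTA2.

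Among the UDP-glycosyltransferases, genes of the UGT2 group, known from liver and gut, were highest from day 22 on. UGT2B10, which conjugates tertiary amines such as nicotine, read 2.69 and 3.77 at day 0, 2.73 and 2.74 at day 15, 8.57 and 7.95 at day 22, 5.87, 6.71 and 6.76 in SCGB3A2+ cells and 7.45, 7.46 and 7.34 in SCGB3A2- cells. Day 22, SCGB3A2- and SCGB3A2+ cells formed separate steps in that descending order, all above the earlier groups. UGT2A3, a bile acid enzyme, read 1.97 and 2.50 at day 0, 1.93 and 2.29 at day 15, 5.03 and 4.87 at day 22, 3.65, 3.96 and 4.13 in SCGB3A2+ cells and 5.96, 5.79 and 5.57 in SCGB3A2- cells. It was highest in SCGB3A2- cells, with no overlap of the late groups. UGT2B4, also active on bile acids, read 1.09 and 1.20 at day 0, 0.79 and 1.03 at day 15, 3.57 and 3.24 at day 22, 1.60, 2.40 and 2.20 in SCGB3A2+ cells and 3.45, 3.18 and 3.04 in SCGB3A2- cells. Its SCGB3A2+ arrays lay between the early groups and the SCGB3A2- arrays.

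The other UGT2B genes past the F-test were dim outside day 22. UGT2B28, which acts on steroids, read 0.96 and 1.18 at day 0, 1.44 and 1.40 at day 15, 4.34 and 2.17 at day 22, 1.27, 1.74 and 1.30 in SCGB3A2+ cells and 1.96, 1.36 and 1.63 in SCGB3A2- cells. Its day 22 mean rests mainly on array A. UGT2B7, a main glucuronidation enzyme for opioids in liver, read 0.80 and 0.64 at day 0, 1.27 and 0.91 at day 15, 1.75 and 2.07 at day 22, 0.79, 1.32 and 1.76 in SCGB3A2+ cells and 1.34, 1.23 and 1.67 in SCGB3A2- cells. All its values stayed under 2.96, the 40th percentile of all values on the arrays, used here as the mark of a dim probe set. UGT2B genes resemble one another, and part of a dim signal may come from a brighter relative.

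UGT1A enzymes come from 1 locus, in which each first exon joins shared exons, so a probe set on the shared part cannot tell them apart. UGT1A1, which conjugates bilirubin, read 0.54 and 0.85 at day 0, 1.26 and 1.49 at day 15, 2.05 and 3.52 at day 22, 2.85, 1.58 and 2.58 in SCGB3A2+ cells and 1.09, 0.81 and 0.96 in SCGB3A2- cells. The SCGB3A2+ values lay above the SCGB3A2- values, but only 1 of the 12 arrays passed the dim mark. UGT1A6, an enzyme for small planar phenols, read 1.75 and 2.04 at day 0, 2.03 and 1.37 at day 15, 2.26 and 2.44 at day 22, 2.76, 4.04 and 3.17 in SCGB3A2+ cells and 1.38, 2.59 and 1.39 in SCGB3A2- cells. Array B was the highest of each sort, and the lowest SCGB3A2+ array lay just above it in the SCGB3A2- cells.

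UGT3A2 and UGT8 ran against the other UGT genes past the F-test and were highest in stem cells. UGT3A2, which uses UDP-glucose or UDP-xylose, read 7.41 and 7.34 at day 0, 4.0 and 4.51 at day 15, 1.20 and 1.45 at day 22, 1.44, 1.46 and 1.75 in SCGB3A2+ cells and 1.36, 1.60 and 2.11 in SCGB3A2- cells. Stem cells, progenitors and all later arrays formed 3 separate levels. UGT8, the galactosyltransferase that makes galactosylceramide, read 8.17 and 7.85 at day 0, 7.36 and 8.31 at day 15, 7.04 and 8.18 at day 22, 5.90, 5.38 and 6.54 in SCGB3A2+ cells and 7.20, 6.95 and 7.14 in SCGB3A2- cells. Its groups overlapped up to day 22, and the SCGB3A2+ arrays were the lowest of all.

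Sulfotransferase changes lay mainly in the SULT1 family. SULT1E1, the estrogen sulfotransferase, read 2.03 and 2.02 at day 0, 5.77 and 5.74 at day 15, 7.46 and 7.33 at day 22, 6.57, 7.23 and 7.12 in SCGB3A2+ cells and 8.70, 8.78 and 8.84 in SCGB3A2- cells. No SCGB3A2+ array reached the day 22 values, and each SCGB3A2- array exceeded every array of the other groups. SULT1C4, expressed in fetal lung and kidney, read 3.29 and 4.03 at day 0, 6.15 and 6.69 at day 15, 5.42 and 6.45 at day 22, 4.42, 5.28 and 4.74 in SCGB3A2+ cells and 7.26, 8.02 and 8.22 in SCGB3A2- cells. Its sorts lay on opposite sides of day 22. SULT1C2 read 3.26 and 2.67 at day 0, 5.31 and 5.37 at day 15, 4.30 and 5.27 at day 22, 4.91, 4.97 and 5.50 in SCGB3A2+ cells and 6.19, 6.16 and 6.04 in SCGB3A2- cells. SCGB3A2- cells were the highest group, and SCGB3A2+ cells overlapped both day 15 and day 22.

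SULT1B1, which acts on thyroid hormone and is found in gut and liver, read 1.29 and 0.90 at day 0, 1.64 and 0.92 at day 15, 3.15 and 5.06 at day 22, 1.75, 2.04 and 2.53 in SCGB3A2+ cells and 2.04, 2.96 and 3.86 in SCGB3A2- cells. Its replicates were wide apart, with the day 22 mean carried by array C. SULT4A1, a brain form, read 3.50 and 3.26 at day 0, 2.67 and 2.44 at day 15, 2.73 and 2.77 at day 22, 2.55, 2.36 and 2.43 in SCGB3A2+ cells and 2.55, 2.16 and 2.37 in SCGB3A2- cells. It was highest in the stem cells, and its later arrays were dim.

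UGT2B10 had the widest range of the UGT2 genes, and SULT1E1 and SULT1C4 those of the sulfotransferases. Their RefSeq promoters (GRCh38.p14, 250 bases before the start, 5′ to 3′) are given with capitals at motif matches:

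UGT2B10 (chr4:68815744-68815993, plus strand): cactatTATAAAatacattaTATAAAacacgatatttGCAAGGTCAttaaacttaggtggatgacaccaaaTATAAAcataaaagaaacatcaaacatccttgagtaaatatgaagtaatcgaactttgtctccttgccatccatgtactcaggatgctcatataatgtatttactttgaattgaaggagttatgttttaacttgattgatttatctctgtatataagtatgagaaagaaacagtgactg

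SULT1E1 (chr4:69860146-69860395, minus strand): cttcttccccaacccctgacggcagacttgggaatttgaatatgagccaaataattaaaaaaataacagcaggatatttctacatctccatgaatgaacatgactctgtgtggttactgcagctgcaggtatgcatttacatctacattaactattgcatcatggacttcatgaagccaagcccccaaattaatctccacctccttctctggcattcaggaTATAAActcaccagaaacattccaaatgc

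SULT1C4 (chr2:108377704-108377953, plus strand): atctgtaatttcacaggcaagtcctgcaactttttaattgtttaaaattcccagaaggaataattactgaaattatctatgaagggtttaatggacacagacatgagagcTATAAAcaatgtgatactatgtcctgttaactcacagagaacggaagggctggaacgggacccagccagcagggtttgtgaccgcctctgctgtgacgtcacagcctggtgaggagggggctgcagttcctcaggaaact

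The capitals mark TATAAA in all 3 and, in UGT2B10, also GCAAGGTCA, the antioxidant response element core read on the other strand. TATAAA lies 29 to 24 bases before the SULT1E1 start, which is a TATA box position. In UGT2B10 it lies at 244 to 239, 230 to 225 and 179 to 174, and in SULT1C4 at 140 to 135. Of 39 conjugating enzyme genes with a RefSeq promoter entry, 6 held TATAAA as written (15.4%, beside 7.17% of 27305 promoters). On both strands, 7 held TGACNNNGC (17.9%, beside 11%), 12 held GCGTG, the core of the xenobiotic response element (30.8%, beside 31.9%), 3 held TGTTTAC, a FOXA motif (7.69%, beside 2.98%), and 7 held TTGCNNAA, a C/EBP motif (17.9%, beside 9.13%). A match describes the letters in this window and is no proof of a bound site.

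**Figure D3:**
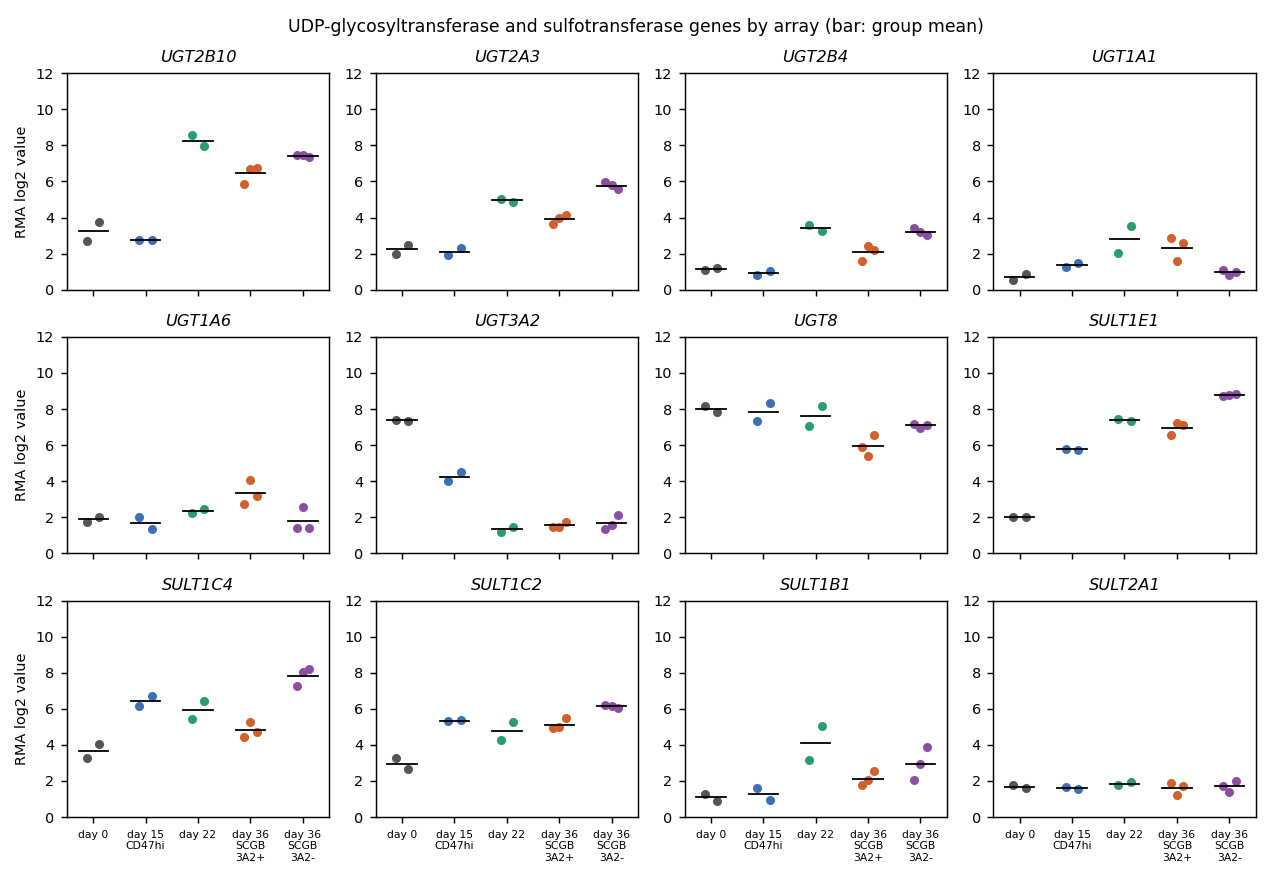
RMA log2 values of 7 UDP-glycosyltransferase and 5 sulfotransferase genes on each of the 12 arrays (points) by group, with the group mean as a bar. UGT2B10, UGT2A3 and UGT2B4 are higher at day 22 than on every array of day 0 and day 15, UGT3A2 runs the other way, and SULT1E1 and SULT1C4 are highest in SCGB3A2- cells.

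The remaining 19 genes did not pass the F-test, and 17 of them stayed under the dim mark in every group mean. They were GSTA3, GSTA5, GSTM5 and GSTZ1 (group means from 1.48 to 4.86), SULT1A1, SULT1C3, SULT2A1, SULT2B1 and SULT6B1 (0.92 to 3.38), and UGT1A4, UGT1A5, UGT1A7 to UGT1A10, UGT2A1, UGT2B15, UGT2B17 and UGT3A1 (0.88 to 2.54). SULT2A1, the steroid sulfotransferase of liver and adrenal, ran from 1.23 to 1.99 over the 12 arrays. GSTZ1, an enzyme of tyrosine breakdown, and SULT1A1, a main phenol sulfotransferase, were above the mark in at least 1 group. In all, 28 genes passed the dim mark in some group, namely 15 GST, 7 UGT and 6 SULT genes. Such dim readings lie close to the array's background and do not show that a transcript is absent.

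Neighbouring genes did not share a pattern throughout. On chromosome 6 the alpha class genes lie in the order GSTA2, GSTA1, GSTA5, GSTA3 and GSTA4, and the dim GSTA5 and GSTA3 sit between the genes that changed most. On chromosome 4, UGT2B10, UGT2A3, UGT2B28 and UGT2B4 were all highest at day 22 or in SCGB3A2- cells. They lie among the dim UGT2B17, UGT2B15 and UGT2A1, which did not pass the F-test, and SULT1B1 and SULT1E1 follow. UGT2B7, which lies between UGT2A3 and UGT2B28, was dim but also highest at day 22 (mean 1.91). On chromosome 2 the dim SULT1C3 lies beside SULT1C2 and SULT1C4.

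Between stem cells and lung progenitors, mainly glutathione S-transferases and sulfotransferases of the SULT1 family increased. In day 15 CD47hi cells relative to day 0 cells, 12 of the 47 genes were higher (25.5% of them, beside 16.2% of all probe sets) and 4 were lower (8.51%, beside 15.3%). Their median difference was 0.04, against -0.05 over all probe sets. The higher ones were 9 of 18 GST and 3 of 10 SULT genes, whereas UGT3A2 was the only one of 19 UGT genes to pass. SULT1E1 rose by 3.73 ± 0.19 (adjusted p = 1.01e-07), GSTM3 by 2.82 ± 0.20 (8.57e-07), GSTA2 by 2.82 ± 0.54 (0.00167), SULT1C4 by 2.76 ± 0.42 (0.000345) and SULT1C2 by 2.37 ± 0.30 (9.48e-05). GSTK1 rose by 1.81 ± 0.17 (9.56e-06), GSTP1 by 1.62 ± 0.26 (0.000523), GSTM4 by 1.36 ± 0.21 (0.000375), GSTM2 by 1.13 ± 0.40 (0.0488), GSTA4 by 1.06 ± 0.15 (0.000223) and MGST2 by 1.00 ± 0.26 (0.0105). UGT3A2 fell by 3.12 ± 0.24 (2.30e-06) and MGST1 fell by 1.15 ± 0.17 (0.000296). GSTA5 also rose, and SULT4A1 and GSTO2 fell, by less than 1 unit. GSTM2 lost its call when any of 8 arrays was left out (adjusted p 0.0582 to 0.181), and MGST2 lost it without day 0 A (0.0836) or day 15 C (0.0601). GSTA5 lost it without day 0 A (0.0920) or day 15 B (0.176), GSTO2 when any of 5 arrays was left out (0.0508 to 0.206), and without day 0 A the lower count was 7. Cell type markers moved in this comparison too. Of 12 hepatocyte markers, 9 were higher at day 15, with summed levels of 49.17 to 61.69 at day 15 and 30.05 to 33.04 at day 0. Of 8 mesenchyme markers, 5 were higher and 1 lower, with sums of 39.18 to 39.61 at day 15 and 33.03 to 33.82 at day 0. Of 7 stem cell markers, 6 were lower, with sums of 24.27 to 25.35 at day 15 and 54.24 to 54.76 at day 0. The lung and airway list had 3 of 11 markers higher and 1 lower. Its sums were 40.66 to 42.26 at day 15 and 35.95 to 37.63 at day 0. In the endothelial and blood list 2 of 6 markers were lower. Its sums were 11.21 to 11.71 at day 15 and 22.57 to 23.52 at day 0. Among intestine and stomach markers 2 of 11 were higher, and 1 of 4 neural markers was lower. The part of these cells in the result was not tested. In bulk RNA, fewer cells of a type and less RNA per cell cannot be told apart.

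The day 22 cells carried the largest number of increases. Relative to day 15 CD47hi cells, 17 of the 47 genes were higher (36.2% of them, beside 8.95% of all probe sets) and 2 were lower (4.26%, beside 10.6%). Their median difference was 0.24, against -0.01 over all probe sets. The higher ones were 10 GST, 5 UGT and 2 SULT genes. UGT2B10 rose by 5.52 ± 0.36 (adjusted p = 1.41e-06), GSTA2 by 5.02 ± 0.54 (6e-05), GSTA1 by 4.32 ± 0.47 (6.79e-05), UGT2A3 by 2.84 ± 0.22 (6.11e-06), SULT1B1 by 2.82 ± 0.61 (0.00676) and UGT2B4 by 2.49 ± 0.24 (3.02e-05). UGT2B28 rose by 1.83 ± 0.50 (0.0229), SULT1E1 by 1.64 ± 0.19 (0.000128), MGST2 by 1.61 ± 0.26 (0.00105), UGT1A1 by 1.41 ± 0.44 (0.0439), GSTA4 by 1.32 ± 0.15 (9.94e-05) and GSTO1 by 1.31 ± 0.28 (0.00579). MGST1 rose by 1.28 ± 0.17 (0.00031), MGST3 by 1.20 ± 0.17 (0.000507), GSTM3 by 1.06 ± 0.20 (0.00252) and GSTT1 by 1.01 ± 0.19 (0.00348), and GSTA3 rose by less than 1 unit. UGT3A2 fell by 2.93 ± 0.24 (8.98e-06) and GSTM2 fell by 1.69 ± 0.40 (0.0106). UGT2B7, with a difference of 0.82 ± 0.27, did not pass (0.0575). A fit of the day 15 and day 22 arrays alone called UGT2B7 higher (adjusted p = 0.0414) but not UGT1A1, UGT2B28 or GSTA3.

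Several of these day 22 calls were lost when 1 array was left out, in some cases also an array outside the comparison. UGT1A1 lost its call when any of 9 arrays was left out (adjusted p 0.0538 to 0.363) and GSTA3 likewise for 9 (0.0504 to 0.267). UGT2B28 lost it without day 22 A (0.0987), day 15 B (0.0933) or day 15 C (0.102). SULT1B1 lost it without day 15 C (0.0623) or day 22 C (0.0686), GSTO1 without day 22 C (0.0523), and GSTM2 without day 15 B (0.0505), day 15 C (0.0644) or day 22 C (0.110). Markers of liver and gut moved with these genes. Of 12 hepatocyte markers, 11 were higher at day 22 than at day 15, with summed levels of 109.5 to 117.2 at day 22 and 49.17 to 61.69 at day 15. Of 11 markers of intestine and stomach, 9 were higher, with sums of 73.15 to 82.86 at day 22 and 36.68 to 39.47 at day 15. Of 11 lung and airway markers, 10 were higher, with sums of 76.5 to 82.25 at day 22 and 40.66 to 42.26 at day 15. Of 8 mesenchyme markers, 5 were lower and 1 higher, with sums of 30.92 to 33.08 at day 22 and 39.18 to 39.61 at day 15. ALB and TF were dim at day 15 and not at day 22. The same held for SCGB3A2, SFTPA1 and NAPSA of the lung and airway list. It also held for MUC13, TFF1, REG4, MEP1A and FABP1 of the intestine and stomach list. All 6 endothelial and blood markers and all 4 neural markers were dim at both stages. The part of these other cell types in the result was not tested.

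From day 22 to the SCGB3A2+ cells of day 36, 2 of the 47 genes were higher (4.26%, beside 6.75% of all probe sets) and 10 were lower (21.3%, beside 7.71%). The median difference was -0.27, against -0.002 over all probe sets. MGST1 rose by 1.23 ± 0.16 (adjusted p = 0.000583) and GSTA4 rose by 1.22 ± 0.14 (0.00033). SULT1B1 fell by 1.997 ± 0.56 (0.034), UGT2B28 fell by 1.82 ± 0.46 (0.0212), UGT2B10 fell by 1.82 ± 0.32 (0.00396), GSTO1 fell by 1.72 ± 0.25 (0.00139) and GSTA2 fell by 1.71 ± 0.49 (0.0384). UGT8 fell by 1.67 ± 0.38 (0.0142), UGT2B4 fell by 1.34 ± 0.22 (0.00275) and UGT2A3 fell by 1.04 ± 0.20 (0.00674), while GSTM3 and GSTK1 fell by less than 1 unit. Without day 22 C the lower count dropped to 5, and the adjusted p became 0.348 for GSTA2, 0.364 for SULT1B1, 0.184 for UGT8, 0.106 for GSTM3 and 0.199 for GSTK1. Without day 22 A the adjusted p of UGT2B28 became 0.100, without SCGB3A2+ A it was 0.0970 for GSTA2, 0.104 for SULT1B1, 0.0647 for UGT2B28 and 0.0568 for GSTK1, and without SCGB3A2+ B it was 0.104 for GSTA2 and 0.0718 for SULT1B1. Leaving out an SCGB3A2- array gave 0.0528 to 0.0549 for GSTA2 and, for array B, 0.0506 for SULT1B1, and leaving out SCGB3A2+ C gave 0.0513 for UGT2B28. With SCGB3A2+ A left out, the lower count was 6. A fit of the SCGB3A2+ and day 22 arrays alone called 4 genes lower, without GSTA2 (adjusted p = 0.0637), SULT1B1 (0.0652), UGT2B28 (0.0983), UGT8 (0.0585), GSTM3 (0.0505) and GSTK1 (0.0696). Of 12 hepatocyte markers, 6 were lower, with sums of 94.28 to 97.51 in SCGB3A2+ cells and 109.5 to 117.2 at day 22. Of 11 intestine and stomach markers, 6 were lower, with sums of 57.67 to 66.91 in SCGB3A2+ cells and 73.15 to 82.86 at day 22. Of 11 lung and airway markers, 9 were higher, with sums of 104.7 to 107.1 in SCGB3A2+ cells and 76.5 to 82.25 at day 22. The part of these cells in the falls and rises was not tested.

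From day 22 to the SCGB3A2- cells, 4 of the 47 genes were higher (8.51%, beside 3.75% of all probe sets) and 2 were lower (4.26%, beside 4.15%). The median difference was -0.10, against -0.002 over all probe sets. SULT1C4 rose by 1.90 ± 0.38 (adjusted p = 0.0105), SULT1E1 rose by 1.38 ± 0.18 (0.000621) and SULT1C2 rose by 1.34 ± 0.27 (0.0114), so 3 of the 4 higher genes were SULT1 genes, and UGT2A3 rose by less than 1 unit. UGT1A1 fell by 1.83 ± 0.40 (0.0172), and MGST1 fell by less than 1 unit. Without day 22 A the higher count was 1, SULT1C4 had an adjusted p of 0.116, SULT1C2 of 0.114 and UGT2A3 of 0.0985. UGT1A1 lost its call without day 22 C (0.181), SCGB3A2- B (0.0602) or SCGB3A2- C (0.0510), MGST1 when any of 10 arrays was left out (0.0516 to 0.213) and UGT2A3 also without day 22 C (0.192), SCGB3A2- A (0.101) or SCGB3A2- B (0.0879). A fit of the SCGB3A2- and day 22 arrays alone called 4 genes lower, adding UGT1A8 (adjusted p = 0.0487) and UGT2B10 (0.0411). It also called MGST2 higher (0.0221). With arrays centred on their medians MGST1 did not pass (0.0628), and with the replicate letter as a block neither MGST1 nor UGT2A3 passed. Of 11 lung and airway markers, 7 were lower, with sums of 58.55 to 60.23 in SCGB3A2- cells and 76.5 to 82.25 at day 22. Of 11 intestine and stomach markers, 4 were lower and 1 higher, with sums of 71.23 to 75.57 in SCGB3A2- cells and 73.15 to 82.86 at day 22. Of 12 hepatocyte markers, 1 was lower and 1 higher, with sums of 104.6 to 115 in SCGB3A2- cells and 109.5 to 117.2 at day 22, and the part of these cells was not tested. Both comparisons used the same day 22 arrays, so their differences are not independent.

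At day 36 the sorts differed in the RNA levels of several conjugating enzyme genes. SCGB3A2+ cells had more MGST1, GSTA4, UGT1A6 and UGT1A1, and SCGB3A2- cells had more of SULT1C4, SULT1E1, SULT1C2, GSTO1, MGST2, UGT2A3, UGT2B4 and UGT2B10. In SCGB3A2+ cells relative to SCGB3A2- cells, 4 of the 47 genes were higher (8.51%, beside 10.1% of all probe sets) and 12 were lower (25.5%, beside 12.8%). The median difference was -0.14, against 0.02 over all probe sets. MGST1 was higher by 1.80 ± 0.14 (adjusted p = 5.40e-06), UGT1A6 by 1.54 ± 0.36 (0.00942), UGT1A1 by 1.38 ± 0.36 (0.0164) and GSTA4 by 1.32 ± 0.12 (1.93e-05). SULT1C4 was lower by 3.02 ± 0.34 (7.94e-05), which is 8.11-fold lower in SCGB3A2+ cells. GSTO1 was lower by 1.99 ± 0.23 (8.04e-05), UGT2A3 by 1.86 ± 0.18 (2.75e-05) and SULT1E1 by 1.80 ± 0.16 (1.33e-05). UGT8 was lower by 1.16 ± 0.34 (0.0304), UGT2B4 by 1.15 ± 0.20 (0.00144), MGST2 by 1.09 ± 0.21 (0.00291) and SULT1C2 by 1.00 ± 0.25 (0.0116). UGT2B10, GSTM3, GSTK1 and GSTM4 were lower by less than 1 unit. The arrays of the sorts did not overlap for any of these 16 genes, but non-overlap was as common over the array, for 19 of the 47 genes (40.4%), beside 40.3% of all probe sets. A fit with the replicate letter as a block called the same 4 and 12. GSTA1, at -0.05 ± 0.38, and GSTA2, at -0.35 ± 0.44, did not pass.

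Leaving out 1 array ended some of the weaker calls between the sorts. UGT8 lost its call when any of 5 day 36 arrays was left out (adjusted p 0.0613 to 0.110), and GSTM4 for 8 arrays (0.0531 to 0.143). UGT2B10 lost it without SCGB3A2+ A (0.124), SCGB3A2- A (0.0795), SCGB3A2- B (0.0859) or SCGB3A2- C (0.0690), and UGT1A1 without SCGB3A2+ A (0.0721), SCGB3A2+ C (0.0578) or SCGB3A2- B (0.0588). Without SCGB3A2+ A the adjusted p was 0.0507 for SULT1C2 and 0.0504 for GSTK1, and without SCGB3A2- A it was 0.0525 for GSTM3. Markers of other cell types moved with the sorts. All 11 lung and airway markers were higher in SCGB3A2+ cells, with sums of 104.7 to 107.1 in SCGB3A2+ cells and 58.55 to 60.23 in SCGB3A2- cells. Of 12 hepatocyte markers, 7 were lower in SCGB3A2+ cells, with sums of 94.28 to 97.51 in SCGB3A2+ cells and 104.6 to 115 in SCGB3A2- cells, and none of the 12 was dim in either sort. Of 11 intestine and stomach markers, 4 were lower in SCGB3A2+ cells, with sums of 57.67 to 66.91 in SCGB3A2+ cells and 71.23 to 75.57 in SCGB3A2- cells. REG4 was the 1 dim marker of that list in both sorts, and the part of these cells in the result was not tested.

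**Figure D4:**
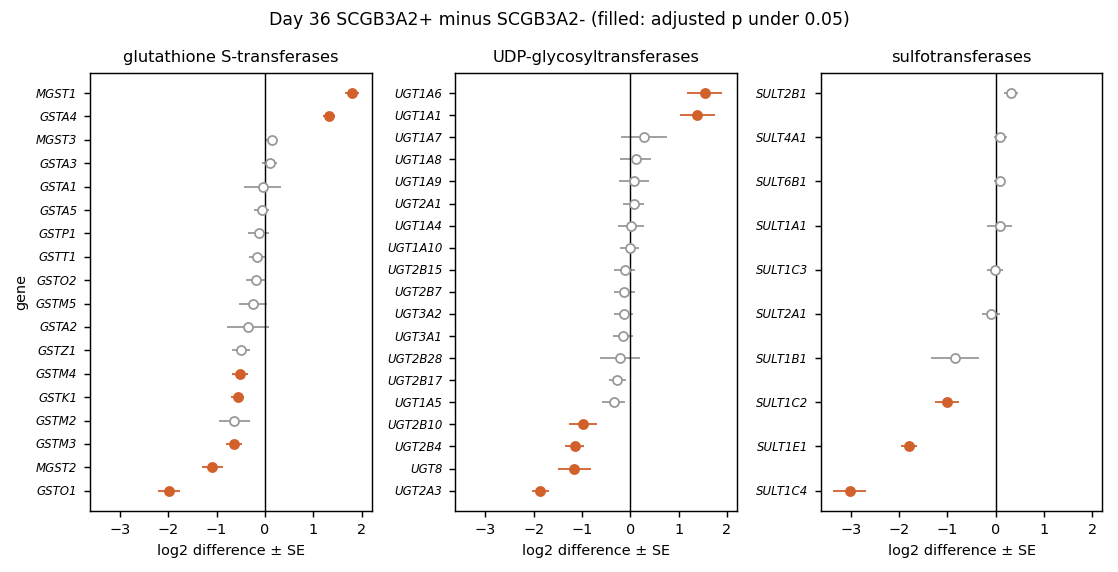
Difference between SCGB3A2+ and SCGB3A2- cells of day 36 for all 47 genes (points, log2, SCGB3A2+ minus SCGB3A2-), with limma's SE as a bar and filled points where the adjusted p was under 0.05. The 4 filled points to the right of 0 are MGST1, GSTA4, UGT1A6 and UGT1A1, and the 12 to the left run down to SULT1C4.

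Genes that supply the donors of conjugation, carry conjugates out or respond to electrophiles through NRF2 also changed at day 22. For reference, 8.95% of the whole array rose and 10.6% fell between these stages. Relative to day 15, 5 of 10 genes of glucuronate and sulfate donor supply were higher (median difference 0.70), among them PAPSS2, which makes the sulfate donor PAPS, at 3.87 ± 0.21 (adjusted p = 4.2e-07), UGDH, which makes UDP-glucuronate, at 0.83 ± 0.14 (0.00184), and SLC35D1, a carrier of nucleotide sugars, at 1.03 ± 0.20 (0.00413). Of 14 genes of glutathione supply and turnover, 6 were higher (median 0.03), among them GCLM, a subunit of the enzyme that starts glutathione synthesis, at 1.75 ± 0.15 (1.40e-05). The cystine carrier SLC7A11 followed at 1.68 ± 0.29 (0.00176). Of 12 genes of the NRF2 pathway, 7 were higher (median 0.67), led by the quinone reductase NQO1 at 4.10 ± 0.24 (7.68e-07) and TXNRD1 at 1.60 ± 0.13 (8.64e-06). Some of these genes had been lower at day 15 than at day 0. Means at day 0, day 15 and day 22 were 5.62, 4.08 and 5.83 for GCLM. They were 8.23, 5.08 and 6.76 for SLC7A11, 5.98, 3.65 and 7.52 for PAPSS2, and 6.03, 4.48 and 8.57 for NQO1. UGDH and SLC35D1 averaged 8.20 and 5.14 at day 15, above their 7.95 and 4.06 at day 0.

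Conjugate export changed in both directions at day 22. Of 10 transporters, 5 were higher and 2 lower than at day 15 (median 0.67). ABCC3 rose by 4.08 ± 0.30 (adjusted p = 3.26e-06), ABCC2 by 3.38 ± 0.24 (2.65e-06), ABCG2 by 3.11 ± 0.38 (0.000165), and the uptake carrier SLCO2B1 by 2.91 ± 0.43 (0.000673), whereas ABCC1 fell by 1.18 ± 0.15 (0.000212). ABCC2, which exports conjugates into bile, read 2.01 and 2.44 at day 0, 1.87 and 2.37 at day 15, 5.62 and 5.39 at day 22, 2.21, 2.17 and 2.63 in SCGB3A2+ cells and 2.80, 2.74 and 3.20 in SCGB3A2- cells. Its day 22 arrays stood apart from all others. Of 10 genes of methylation and other conjugation, 4 were higher at day 22 (median 0.55), with BAAT, which joins bile acids to amino acids, at 3.64 ± 0.29 (6.61e-06). Of 11 genes of deconjugation, 3 were higher (median 0.35), with the steroid sulfatase STS at 1.47 ± 0.17 (8.65e-05), and of 7 xenobiotic and liver regulators 2 were higher and 1 lower (median 0.27), with the receptor AHR at 1.56 ± 0.19 (0.000184). One step earlier, at day 15 relative to day 0, 7 of 14 glutathione supply genes were lower and 1 higher (median -0.49), beside 15.3% lower and 16.2% higher of all probe sets, with SLC7A11 8.84-fold lower.

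Donor supply also separated the day 36 sorts, with the PAPS synthases in opposite directions. PAPSS2 read 8.48, 7.98 and 8.35 in SCGB3A2+ cells, against 5.56, 5.38 and 5.26 in SCGB3A2- cells, a difference of 2.87 ± 0.17 (adjusted p = 8.59e-07). PAPSS1 read 6.29, 6.79 and 6.71 in SCGB3A2+ cells, against 7.54, 7.70 and 7.88 in SCGB3A2- cells, a difference of -1.11 ± 0.16 (0.000402). Across the donor list, 3 of 10 genes were higher and 3 lower (median -0.13), beside 10.1% higher and 12.8% lower of all probe sets. The glutathione list had 3 higher and 2 lower of 14 (median 0.15), with GGT5, which cleaves glutathione conjugates outside the cell, higher by 1.30 ± 0.12 (1.48e-05). The transporters had 3 higher and 3 lower of 10 (median -0.26), with ABCC5 higher by 1.46 ± 0.15 (3.36e-05) and ABCC1 lower (difference -0.84 ± 0.12, adjusted p = 0.000452). The NRF2 list had 4 higher and 2 lower of 12 (median 0.09), with HMOX1 higher by 1.75 ± 0.30 (0.00145), and AHR was higher by 0.97 ± 0.16 (0.00095) while CEBPA was lower (difference -1.48 ± 0.37, adjusted p = 0.0127). The methylation list had 1 higher and 2 lower of 10 (median -0.18), and the deconjugation list 3 higher and 1 lower of 11 (median 0.01).

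Against day 22, members of the export and NRF2 lists fell in each sort. In SCGB3A2+ cells 4 of 10 transporters were lower (median -0.23, beside 7.71% of all probe sets lower), among them ABCC2 at -3.17 ± 0.22 (adjusted p = 1.96e-05) and ABCG2 at -2.92 ± 0.35 (0.0004), and 6 of 12 NRF2 genes were lower (median -0.45). In SCGB3A2- cells 4 of 10 transporters were lower and 1 higher (median -0.77, beside 4.15% lower and 3.75% higher of all probe sets), with ABCC2 at -2.59 ± 0.22 (adjusted p = 4.25e-05) and ABCG2 at -2.47 ± 0.35 (0.00111), and 4 of 12 NRF2 genes were lower (median -0.50). Over all probe sets the median was -0.002 in both comparisons, which share the day 22 arrays.

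**Figure D5:**
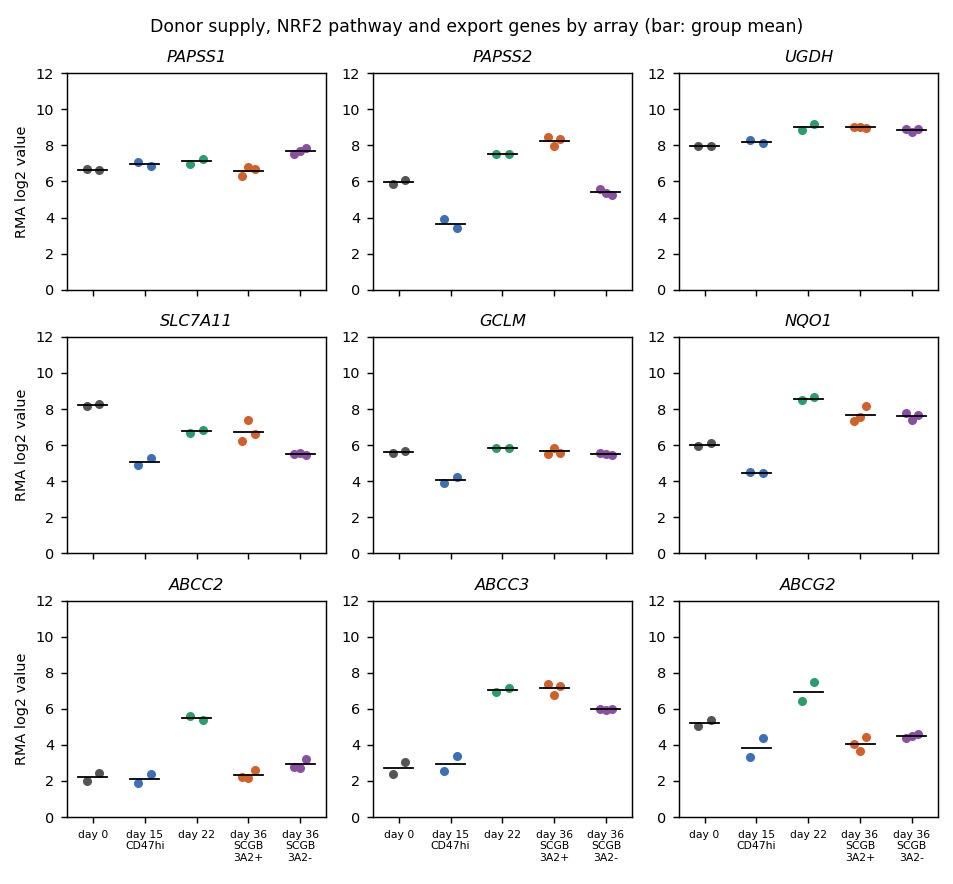
RMA log2 values of 9 genes of donor supply, the NRF2 pathway and conjugate export on each of the 12 arrays (points) by group, with the group mean as a bar. PAPSS2 is higher and PAPSS1 lower in SCGB3A2+ than in SCGB3A2- cells, and ABCC2 is high at day 22 alone.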

How the data were processed

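Gene expression was measured on 12 arrays of RUES2 cells in 5 groups of 2 or 3, with groups and replicate letters taken from the labels. The deposited log2 values were made by the authors with RMA in affy 1.36.1 and R 2.15.1, per the submitters' processing notes. RMA corrects background, normalizes arrays to one another and summarizes probes, so a change in total RNA per cell cannot be seen and low values are compressed. The sources used here do not give the release that annotated the probe sets. Of 23786 probe sets, 22458 had 1 gene symbol in the platform annotation, 0 had several and 1328 had none, and 0 columns of per-sample values were left unused. Per-array medians ran from 3.66 to 3.75.

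A linear model with 1 mean per group over all 12 arrays was fitted to each probe set (lmFit and eBayes of limma 3.58.1, R 4.3.3), giving 7 residual and 4.43 prior degrees of freedom. All tests are two-sided, and p-values of a comparison were adjusted by Benjamini-Hochberg over the 23786 probe sets. Adjusted p-values in the text are from this fit unless an alternative is named. Every gene past the F-test with group means at least 1 unit apart is given array by array, and every conjugating enzyme gene that passed a comparison with a difference of at least 1 unit is given with its SE. Of each pathway list a few genes per comparison are named, mostly but not always those with the smallest adjusted p. SLC35D1 and SLCO2B1 were added for their size after their values were seen. The gene families, the lists of pathway and marker genes and this rule were chosen with earlier results of these data known. Fits were tested on simulated data. Symbols, gene order and promoters came from RefSeq (GRCh38.p14), which had a promoter for 39 of the 47 genes. Between the day 36 sorts, deviations from group means over all probe sets correlated at 0.104 for letter A, 0.124 for B and 0.111 for C. Each array correlated best with its own letter, so the letters were taken to pair these arrays. Only the alternative fit with the letter as a block uses this pairing. The main fit leaves the letters out. Deviations within a group of 3 depend on one another, which limits this check. Between day 22 and SCGB3A2- arrays the same letters correlated at 0.126 for A and 0.114 for C. Between day 22 and SCGB3A2+ arrays they correlated at 0.0302 for A and 0.0584 for C. The deviations of both day 22 arrays mirror each other, so these values say less about pairing. Genes without a named probe set were not analysed here.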

Additional observations from a re-analysis of the deposited data

Results flagged for a closer look

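For 16 of the 47 genes (34%, beside 22.9% of all probe sets) the change from day 22 to day 36 differed between the sorts. This was tested as the difference between the SCGB3A2+ and SCGB3A2- sorts in limma's fit. These are therefore the same 16 calls given above between the sorts, and no added evidence. The difference, SCGB3A2+ minus SCGB3A2-, was 1.80 for MGST1, which changed by 1.23 in SCGB3A2+ cells and by -0.57 in SCGB3A2- cells, 1.54 for UGT1A6 (0.98 and -0.56 in the same order), 1.38 for UGT1A1 (-0.45 and -1.83) and 1.32 for GSTA4 (1.22 and -0.10). It was -3.02 for SULT1C4 (-1.12 in SCGB3A2+ cells and 1.90 in SCGB3A2- cells), -1.99 for GSTO1 (-1.72 and 0.27), -1.86 for UGT2A3 (-1.04 and 0.82), -1.80 for SULT1E1 (-0.42 and 1.38) and -1.09 for MGST2 (-0.38 and 0.71).

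Smaller or same-signed differences were -1.16 for UGT8 (-1.67 in SCGB3A2+ cells and -0.51 in SCGB3A2- cells), -1.15 for UGT2B4 (-1.34 and -0.18), -1.002 for SULT1C2 (0.34 and 1.34), -0.97 for UGT2B10 (-1.82 and -0.84), -0.64 for GSTM3 (-0.81 and -0.16), -0.57 for GSTK1 (-0.65 and -0.09) and -0.52 for GSTM4 (-0.61 and -0.09). The changes of MGST1, UGT1A6, GSTA4, SULT1C4, GSTO1, UGT2A3, SULT1E1 and MGST2 had opposite signs in the sorts. Of these, MGST1 and UGT2A3 passed the test against day 22 in both sorts. In SCGB3A2- cells, however, the calls of both were lost without some single arrays and with the replicate letter as a block. The same day 22 arrays enter both changes and cancel in their difference.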

How the results depend on the processing

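The fit was repeated without the arrays outside a comparison, with a variance trend and robust eBayes, with weighted arrays, without dim probe sets, after quantile normalization or median centring of the arrays, with the replicate letter as a block, and leaving out each array. No gene changed the direction of a call. With only the arrays compared, calls at day 22 over day 15 ended for UGT1A1 (adjusted p = 0.0944), UGT2B28 (0.120) and GSTA3 (0.0623). UGT2B7 was called higher there (0.0414), and GSTA5 lost its call at day 15 over day 0 (0.0876). In the same fits the genes lower in SCGB3A2+ cells than at day 22 numbered 4 instead of 10. Those lower in SCGB3A2- cells than at day 22 numbered 4 instead of 2. With arrays centred on their median, the last count was 1. Leaving out 1 array gave 9 to 13 higher and 3 to 7 lower genes for day 15 over day 0, and 13 to 17 higher and 1 to 2 lower for day 22 over day 15. It gave 2 higher and 5 to 12 lower for SCGB3A2+ over day 22, and 1 to 4 higher and 0 to 2 lower for SCGB3A2- over day 22. It gave 3 to 4 higher and 8 to 12 lower between the sorts, and 26 to 29 in the F-test. The count of 0 came from limma without SCGB3A2- B or without SCGB3A2- C, where 7 and 8 genes, in that order, were lower at an unadjusted p under 0.05. The lone array left in a group of 2 was assumed to vary like the other groups.

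The replicate block changed no call between the day 36 sorts. Between day 22 and SCGB3A2- arrays the same letters correlated as highly as between the sorts (0.126 for A and 0.114 for C). Pairing can therefore not be set aside there, and the block ended the SCGB3A2- over day 22 calls of MGST1 (adjusted p = 0.0648) and UGT2A3 (0.0564). Between all other groups the same letters correlated at 0.0593 or less, and pairing was not established. There the block ended calls at day 22 over day 15 for GSTA3 (0.0784), UGT1A1 (0.0908) and UGT2B28 (0.0620). It made 15 higher and 2 lower genes for day 22 over day 15 and 12 higher and 5 lower for day 15 over day 0. It added calls for UGT1A6, lower at day 15 than at day 0 (0.00899), higher at day 22 than at day 15 (0.00146), higher in SCGB3A2+ cells than at day 22 (0.0278) and lower in SCGB3A2- cells than at day 22 (0.00749), and for SULT1C4, lower in SCGB3A2+ cells than at day 22 (0.00755). The cause of these changes was not tested. Of the 47 genes, 19 stayed under the dim mark in every group mean, and signal over background limits what can be said of them.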
